A study of Homo sapiens with 10 samples.

Results

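The results below describe the zinc-finger genes of chromosome 19, many of which encode DNA-binding repressors, in 6 chromatin immunoprecipitation sequencing (ChIP-seq) libraries from 22RV1 cells. Members were protein-coding genes on chromosome 19 (GRCh38) whose symbol is ZNF followed by digits alone, and 240 of 20037 protein-coding genes met that rule. The strand was known for 210 of the 240, so that the 5′ end (start) and the 3′ end could be told apart, and the other 30 are given separately. Each deposited file was a list of peaks with the position of 1 summit per peak, and a member was scored for a summit within 1 kb of its 5′ end, within 1 kb of its 3′ end or in the gene body between them.

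22RV1 is a human prostate carcinoma cell line. A library from cells transfected with siRNA against RB1, the retinoblastoma gene, was set against a control siRNA library. A library from cells given a plasmid for HA-RB(245-255), an HA-tagged piece of the RB protein, was set against its empty vector library, EV(245-255). A library from cells given a plasmid for HA-RBN was set against its empty vector library, EV(RBN). For the HA-RB(245-255) library the title was followed, although the genotype label places it among controls. The series title concerns TRIM24, but the antibody is not given in the sources used here. Each group had 1 library, so no difference between conditions has a replicate check and no p-value is given. The 4 IgG libraries that belong to the siRNA and 245-255 experiments were not analysed here.

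KRAB zinc-finger proteins bind DNA through arrays of zinc fingers and recruit TRIM28, a scaffold that brings in the histone methyltransferase SETDB1 and the heterochromatin protein HP1. The genes that encode them are themselves a known target of this machinery, since TRIM28, HP1 and trimethylated H3K9 have been mapped to their 3′ ends, where the zinc fingers are encoded. Members were chosen by symbol, and which of them encode a KRAB domain was not analysed here. TRIM24 is a relative of TRIM28 with a chromatin-reading PHD finger and bromodomain.

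Promoters are shown for 6 members because their starts carried the summits described next. ZNF274, which is known to bring SETDB1 to the 3′ ends of other zinc-finger genes, ZNF808 and ZNF91, known repressors of transposable elements, and ZNF333 had a summit at 1 shared place in all 6 libraries and the motif CCGGAAG, the core of an ETS-factor site. ZNF564 had such a summit without the motif, and ZNF558 had its summit at a promoter listed inside the gene. Each sequence runs 5′ to 3′ along the gene from 250 bases before to 50 bases after the start in RefSeq's promoter table for GRCh38.p14, and capitals mark CCGGAAG or its reverse complement.
ZNF274: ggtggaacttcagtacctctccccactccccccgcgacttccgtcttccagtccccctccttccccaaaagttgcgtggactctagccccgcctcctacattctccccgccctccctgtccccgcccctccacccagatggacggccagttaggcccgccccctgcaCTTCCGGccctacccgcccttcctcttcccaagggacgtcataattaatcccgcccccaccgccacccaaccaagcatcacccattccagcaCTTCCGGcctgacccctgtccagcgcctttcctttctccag
ZNF808: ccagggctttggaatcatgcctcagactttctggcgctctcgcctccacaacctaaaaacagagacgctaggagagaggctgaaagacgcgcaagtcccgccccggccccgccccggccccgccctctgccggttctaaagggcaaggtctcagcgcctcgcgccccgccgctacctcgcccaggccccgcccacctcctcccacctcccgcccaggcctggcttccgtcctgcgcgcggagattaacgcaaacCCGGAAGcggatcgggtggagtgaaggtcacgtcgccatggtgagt
ZNF333: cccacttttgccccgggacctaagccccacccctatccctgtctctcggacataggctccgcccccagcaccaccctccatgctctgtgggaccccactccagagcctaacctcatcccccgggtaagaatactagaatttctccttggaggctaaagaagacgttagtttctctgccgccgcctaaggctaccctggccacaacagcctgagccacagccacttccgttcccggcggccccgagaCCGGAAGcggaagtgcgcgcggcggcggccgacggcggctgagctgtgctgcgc
ZNF91: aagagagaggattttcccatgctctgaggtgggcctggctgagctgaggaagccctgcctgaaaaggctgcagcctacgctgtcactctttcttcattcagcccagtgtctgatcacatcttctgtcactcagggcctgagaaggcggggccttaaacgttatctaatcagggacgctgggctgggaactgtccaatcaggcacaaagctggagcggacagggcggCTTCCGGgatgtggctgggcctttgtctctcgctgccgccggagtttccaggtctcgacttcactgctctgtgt
ZNF564: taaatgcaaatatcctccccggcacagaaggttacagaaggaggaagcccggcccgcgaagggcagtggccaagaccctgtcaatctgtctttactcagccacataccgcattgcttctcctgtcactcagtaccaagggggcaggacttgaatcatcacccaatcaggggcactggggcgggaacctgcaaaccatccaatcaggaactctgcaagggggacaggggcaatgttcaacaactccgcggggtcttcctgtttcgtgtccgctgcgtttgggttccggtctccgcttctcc
ZNF558: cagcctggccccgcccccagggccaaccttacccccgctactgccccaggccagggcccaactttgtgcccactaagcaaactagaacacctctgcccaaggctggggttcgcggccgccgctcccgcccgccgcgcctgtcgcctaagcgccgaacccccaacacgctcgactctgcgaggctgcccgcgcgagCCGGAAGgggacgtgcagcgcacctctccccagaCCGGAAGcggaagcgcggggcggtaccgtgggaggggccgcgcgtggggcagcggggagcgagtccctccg

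The windows were chr19:58182811-58183110 (plus strand) for ZNF274, chr19:52527418-52527717 (plus strand) for ZNF808, chr19:14689798-14690097 (plus strand) for ZNF333, chr19:23395422-23395721 (minus strand) for ZNF91, chr19:12551433-12551732 (minus strand) for ZNF564 and chr19:8832255-8832554 (minus strand) for ZNF558. In ZNF274 the 2 matches began at positions -83 and 10 from the start, and the summits of the 6 libraries lay 23 to 174 bases after it. In ZNF333 the match began at position -4, and the summits lay between 117 bases before and 43 bases after the start. In ZNF808 it began at position 5, with all 6 summits upstream, 75 to 245 bases before the start. In ZNF558 the matches began at positions -55 and -21, and the summits lay 248 to 432 bases before the start.

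In each of the 6 libraries more members had a summit at the 5′ end than at the 3′ end. Of the 210 members with a known strand, a 5′ summit was listed for 60 (28.6%, exact 95% binomial interval 22.6 to 35.2) in the RB1 siRNA library and 48 (22.9%, 17.4 to 29.1) in the control siRNA library. The numbers were 103 (49.0%, 42.1 to 56.0) in the HA-RB(245-255) library and 92 (43.8%, 37.0 to 50.8) in the EV(245-255) library. They were 181 (86.2%, 80.8 to 90.6) in the HA-RBN library and 153 (72.9%, 66.3 to 78.7) in the EV(RBN) library. Intervals here and below cover counting error alone, and sequenced fragments without molecular identifiers are not independent molecules. The intervals also treat members as independent, although neighbours with close starts can share 1 summit and are each counted. The 181 members in the HA-RBN library held 176 distinct 5′ summits.

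A 3′ summit was listed for 1 member in the RB1 siRNA library and 0 of 210 in the control siRNA library. A count of 0 allows a share of up to 1.43% when taken as 3 counts, and the exact interval ends at 1.74%. It was listed for 6 members in the HA-RB(245-255) library and 6 in the EV(245-255) library. The HA-RBN library had 41 (19.5%, 14.4 to 25.5) and the EV(RBN) library 26 (12.4%, 8.25 to 17.6). Over all protein-coding genes with a known strand, the 3′ shares were 2.35% and 1.74% in the RB1 and control siRNA libraries, 6.86% and 6.88% in the HA-RB(245-255) and EV(245-255) libraries, and 23.8% and 19.7% in the HA-RBN and EV(RBN) libraries. The members' 3′ share was thus below that of all genes in each of the 6 libraries, although in the RB1 siRNA, control siRNA and HA-RBN libraries its interval includes the share of all genes.

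The members' 5′ share was above that of the other chromosome 19 genes in each of the 6 libraries. Those other genes had 19.8% and 14.9% in the RB1 and control siRNA libraries, 30.8% and 36.1% in the HA-RB(245-255) and EV(245-255) libraries, and 62.9% and 54.2% in the HA-RBN and EV(RBN) libraries. In the EV(245-255) library the intervals of both groups of genes overlapped. All protein-coding genes had 33.4% and 28.1% in the RB1 and control siRNA libraries, both inside the members' intervals, as were 43.2% in the HA-RB(245-255) library and 43.2% in the EV(245-255) library. In the HA-RBN and EV(RBN) libraries all genes had 67.2% and 53.3%, both below the members' intervals. ZNF genes of other chromosomes had 82.1% and 69.2% in the HA-RBN and EV(RBN) libraries, inside the members' intervals. In the other 4 libraries they lay above those intervals, with 45.6% and 34.9% in the RB1 and control siRNA libraries and 62.6% and 59.5% in the HA-RB(245-255) and EV(245-255) libraries.

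**Figure D1:**
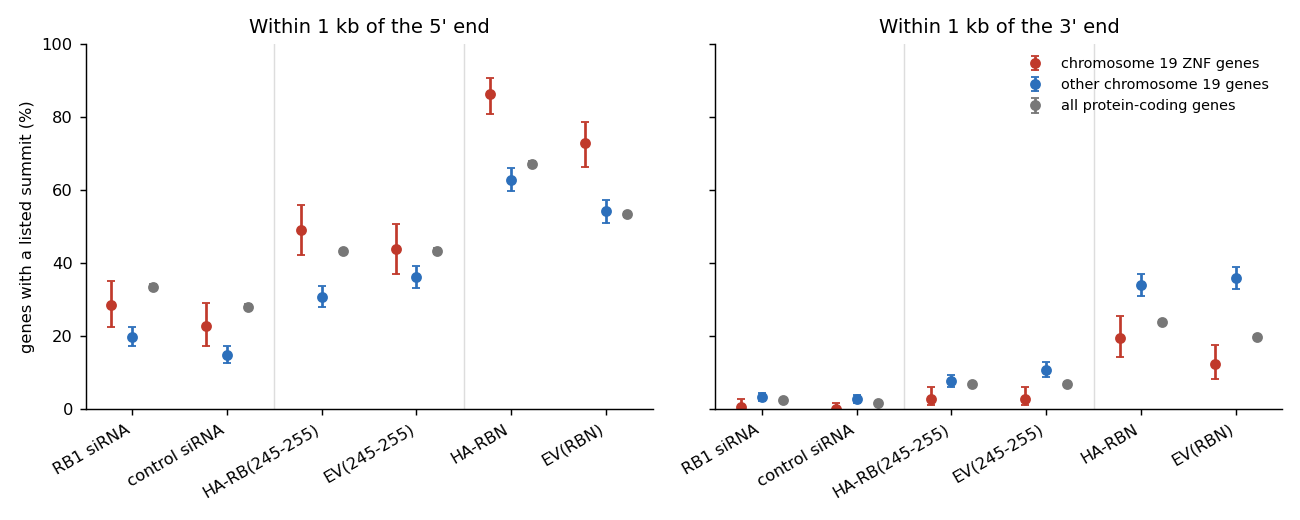
Share of genes with a listed summit within 1 kb of the 5′ end (left) and the 3′ end (right), in percent, for each of the 6 libraries; points are shares and bars exact 95% binomial intervals over genes. In the HA-RBN library 86.2% of the chromosome 19 ZNF genes had a 5′ summit and 19.5% a 3′ summit.

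The shares of different experiments are not on 1 scale. In the siRNA and 245-255 lists the intervals were wide, with a median width at the members of 149185 bases in the RB1 siRNA library, 198969 in the control siRNA library, 38949.5 in the HA-RB(245-255) library and 45385 in the EV(245-255) library, and each interval names its highest point alone. A member without a summit there mostly lay inside an interval whose summit was elsewhere. At the 3′ ends so covered, the stack could not exceed that of the interval's summit, and this bound was under 10 fragments for 18 of 201 members in the RB1 siRNA library, 11 of 206 in the control siRNA library, 77 of 194 in the HA-RB(245-255) library and 73 of 196 in the EV(245-255) library. In the HA-RBN and EV(RBN) lists the median widths at members were 595 and 533 bases, so a member without a summit was mostly outside any listed interval. The exception was 1 of 29 members without a 5′ summit in the HA-RBN library, which lay inside an interval with a summit of 39 fragments elsewhere.

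Strength was then set beside position. The number of fragments stacked at a summit was recovered from the listed fold and p-value of each peak, and enrichment is that number over the library's genome-wide background. At their 5′ summits the members had a median of 34.5 fragments in the RB1 siRNA library and 29 in the control siRNA library, 16 in the HA-RB(245-255) library and 15 in the EV(245-255) library, and 14 in the HA-RBN library and 6 in the EV(RBN) library. Over all protein-coding genes these medians were 29 and 25 in the RB1 and control siRNA libraries, 12 in either 245-255 library, and 11 and 5 in the HA-RBN and EV(RBN) libraries. At 3′ summits the median was 4 fragments in the HA-RBN library and 3 in the EV(RBN) library. At least 10 fragments were stacked at 118 of the members' 5′ ends (56.2%) and 5 of their 3′ ends (2.38%) in the HA-RBN library, where all genes had 38.5% and 5.20%. In the EV(RBN) library the members had 43 (20.5%) and 2 (0.952%), beside 12.2% and 1.56% of all genes. The background was 0.539 fragments per base in the RB1 siRNA library and 0.413 in the control siRNA library, 0.250 in HA-RB(245-255) and 0.187 in EV(245-255), and 0.634 in HA-RBN against 0.367 in EV(RBN). This level was the higher in the RB1 siRNA or construct library of each pair, as the 5′ share was, and its part in that share was not tested. Both ends of each member were then compared, with an end without a listed summit counted as 0 fragments. Both were listed in 33 members in the HA-RBN library and 20 in EV(RBN), 1 in RB1 siRNA and 0 in control siRNA, and 1 in HA-RB(245-255) and 4 in EV(245-255). The comparison thus mostly sets a listed end against an unlisted one. The 5′ end was the stronger in 176 members (83.8%) and the 3′ end in 10 (4.76%) in the HA-RBN library, and in 147 (70%) and 9 (4.29%) in the EV(RBN) library. Over all genes the 5′ end was the stronger in 62.2% and the 3′ end in 10.0% in the HA-RBN library, and in 49.1% and 10.2% in the EV(RBN) library. The 3′ end was the stronger in 0 members in either siRNA library, against 1.58% of all genes in the RB1 siRNA library and 1.36% in the control siRNA library. It was the stronger in 5 members (2.38%) in the HA-RB(245-255) library and 3 (1.43%) in the EV(245-255) library, against 4.36% of all genes in either.

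Along the members, summits were densest at the start. In the HA-RBN library there were 37.6 summits per 100 members in the kilobase before the start and 50.7 in the kilobase after it, and 7.21 in the next. In the last kilobase before the 3′ end there were 9.09, and 11.0 in the first kilobase beyond it. The EV(RBN) library gave 41.4 and 34.9 around the start and 6.70 and 5.71 around the 3′ end. Other protein-coding genes had 11.0 and 13.3 summits per 100 genes around the 3′ end in the HA-RBN library. Outside the 2 bins around the start, the members' values ran between 4.29 and 16.2 per 100 in the HA-RBN library and between 1.48 and 10.5 in the EV(RBN) library. The upper values, 16.2 and 10.5, were those from 1 to 2 kb beyond the 3′ end.

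**Figure D2:**
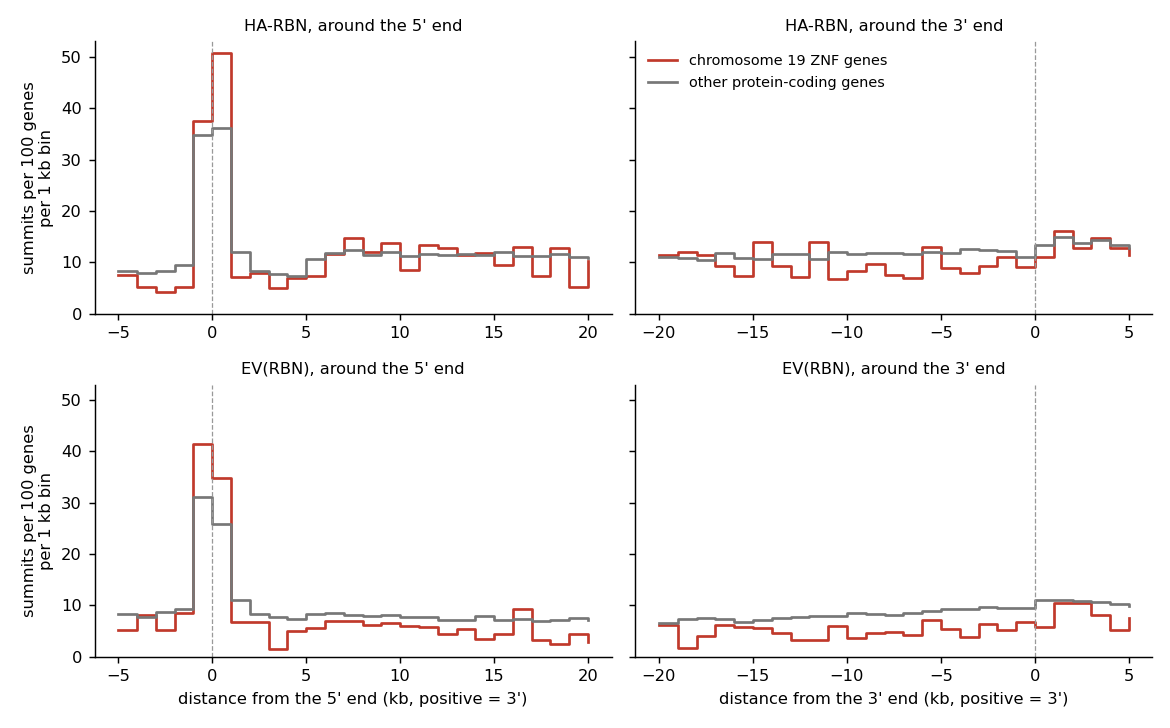
Summits per 100 genes in 1 kb bins by distance (kb) from the 5′ end (left) and the 3′ end (right), in the HA-RBN (top) and EV(RBN) (bottom) libraries, for chromosome 19 ZNF genes and other protein-coding genes. The members' lines peak in the 2 bins around the start, at 37.6 and 50.7 in the HA-RBN library, and run between 4.29 and 16.2 in the other bins of that library.

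The strongest 3′ summits, those of ZNF580 and ZNF324, lay near a listed start of another gene. ZNF580 had 31 fragments in the HA-RB(245-255) library and 39 in the EV(245-255) library, 52 in the HA-RBN library and 26 in the EV(RBN) library, and none was listed in either siRNA library. In those 4 libraries the summit lay 451 to 514 bases before the start listed for ZNF581, the overlapping neighbour. ZNF324 had 37 fragments in the HA-RB(245-255) library and 32 in the EV(245-255) library, 38 in the HA-RBN library and 12 in the EV(RBN) library. Its summits lay 376 to 598 bases from the start of the next gene, ZNF446. These were the 2 members whose 3′ summit recurred in 3 or more libraries, with 4 libraries each. The next strongest 3′ summits in the HA-RBN library were those of ZNF766 and ZNF628, with 14 fragments each, and ZNF358, with 11. An end of ZNF480 lay 293 bases from that of ZNF766, and those of ZNF628 and ZNF358 had no end of another gene within 1 kb. Among the 188 members whose 3′ end lay more than 2 kb from any end of another protein-coding gene, 1 reached 10 fragments in the HA-RBN library, ZNF580.

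A 5′ summit at 1 place, within 500 bases, was found in all 6 libraries for 14 members (6.67%), against 11.5% of all protein-coding genes. They were ZNF564, ZNF333, ZNF257, ZNF724, ZNF91, ZNF546, ZNF841, ZNF766, ZNF808, ZNF549, ZNF776, ZNF256, ZNF274 and ZNF584. A further 28 members (13.3%) had such a place in 5 libraries, against 12.0% of all genes, and 20 (9.52%) had no 5′ summit in any, against 20.7%. ZNF274 had 116 fragments in the RB1 siRNA library and 111 in the control siRNA library, 35 in the HA-RB(245-255) library and 29 in the EV(245-255) library, and 80 in the HA-RBN library and 18 in the EV(RBN) library. It was the strongest member of the HA-RBN library and among the 2 strongest of either siRNA library, and no 3′ summit was listed for it in any library. ZNF584 had 119 and 81 fragments in the RB1 and control siRNA libraries, 49 and 57 in the HA-RB(245-255) and EV(245-255) libraries, and 29 and 14 in the HA-RBN and EV(RBN) libraries. ZNF808 had 63 and 62 fragments in the RB1 and control siRNA libraries, 33 and 31 in the HA-RB(245-255) and EV(245-255) libraries, and 41 and 12 in the HA-RBN and EV(RBN) libraries. The stacks of a pair were close at ZNF274 and ZNF808 in the siRNA and 245-255 experiments, while ZNF584 had more fragments with RB1 siRNA. The HA-RBN stacks were the higher of theirs, in a library with more background. Over background, ZNF274, ZNF808 and ZNF584 had enrichments of 215, 117 and 221 in the RB1 siRNA library. In the control siRNA library these were 269, 150 and 196. They were 140, 132 and 196 in the HA-RB(245-255) library and 155, 165 and 304 in the EV(245-255) library. The HA-RBN library had 126, 64.7 and 45.7, and the EV(RBN) library 49.1, 32.7 and 38.2.

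Other strong starts were missing from 1 or more lists. ZNF837 had 114 fragments in the RB1 siRNA library and 117 in the control siRNA library, but its summit was not listed in the HA-RB(245-255) library, where EV(245-255) had 27. ZNF57 and ZNF77 are neighbours near the short-arm end of the chromosome. ZNF57 had 100 fragments in the RB1 siRNA library, 70 in the HA-RB(245-255) library and 67 in the EV(245-255) library. ZNF77 had 87 fragments in the RB1 siRNA library, 80 in the HA-RB(245-255) library and 71 in the EV(245-255) library. Neither was listed in the control siRNA library, where wide intervals name a single summit.

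**Figure D3:**
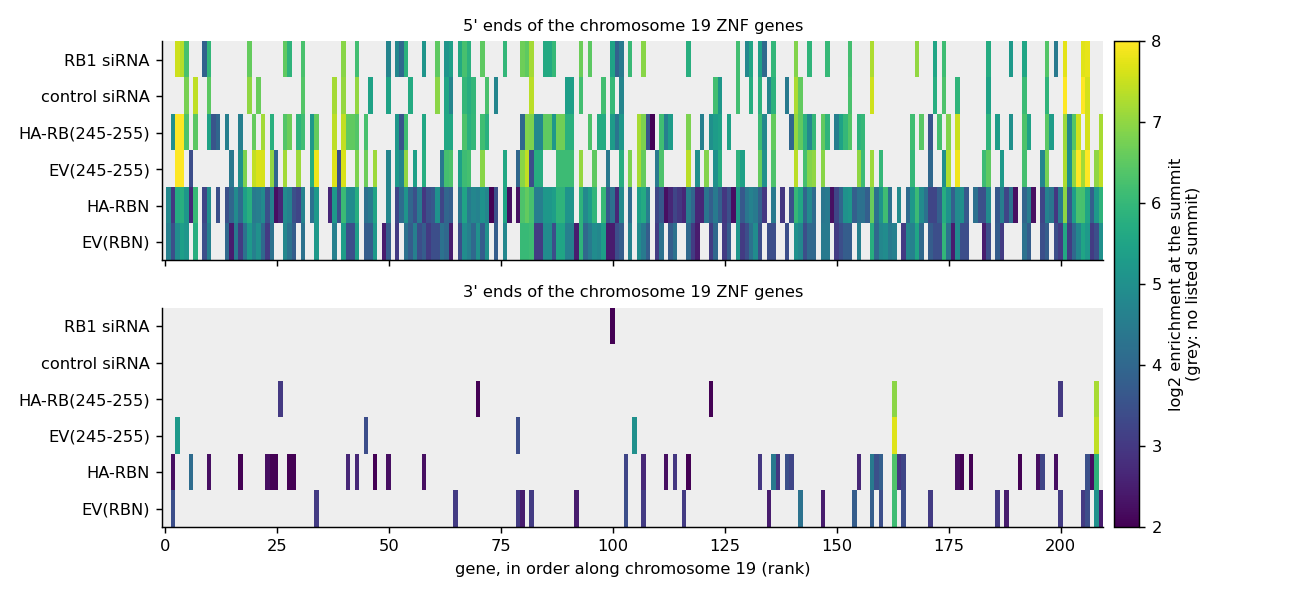
Log2 enrichment at the strongest summit within 1 kb of the 5′ end (top) and the 3′ end (bottom) of the 210 members with a known strand, in order along chromosome 19 (rank), one row per library; grey means that no summit was listed. The 5′ map is filled for 181 members in the HA-RBN library and the 3′ map for 41.

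Of the 3 members followed throughout, ZNF333 had 39 fragments at its start in the RB1 siRNA library and 54 in the control siRNA library, 21 in the HA-RB(245-255) library and 21 in the EV(245-255) library, and 34 in the HA-RBN library and 15 in the EV(RBN) library. Its 3′ end had a summit of 4 fragments in the HA-RBN library and none in the other 5. ZNF180 had no listed 5′ summit in the RB1 siRNA library and 30 fragments in the control siRNA library, 10 in the HA-RB(245-255) library and 6 in the EV(245-255) library, and 14 in the HA-RBN library and 6 in the EV(RBN) library, with no 3′ summit in any. ZNF554 had no summit at either end in any library, and its body held a strongest summit of 8 fragments in the HA-RBN library and 4 in the EV(RBN) library.

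Some members carried their strong summit inside the gene, at a start that RefSeq's promoter table lists there. ZNF444 had 109 fragments in the RB1 siRNA library and 99 in the control siRNA library, 78 in the HA-RB(245-255) library and 84 in the EV(245-255) library, and 54 in the HA-RBN library and 19 in the EV(RBN) library. ZNF558 had 108 and 89 fragments in the RB1 and control siRNA libraries, 33 and 48 in the HA-RB(245-255) and EV(245-255) libraries, and 51 and 16 in the HA-RBN and EV(RBN) libraries. ZNF331, a known imprinted gene, had 95 and 65 fragments in the RB1 and control siRNA libraries, 37 and 37 in the HA-RB(245-255) and EV(245-255) libraries, and 42 and 18 in the HA-RBN and EV(RBN) libraries. Each lay within 1 kb of the member's own listed start in all 6 libraries. Of the body summits with at least 10 fragments, 19 of 41 in the HA-RBN library and 11 of 20 in the EV(RBN) library lay at the member's own listed start, and 8 and 4 at an end of another gene. The rest, 14 in the HA-RBN library and 5 in the EV(RBN) library, lay at neither. In the same way 7 of 16 in the RB1 siRNA library and 5 of 16 in the control siRNA library lay at neither, and 5 of 23 in the HA-RB(245-255) library and 7 of 27 in the EV(245-255) library. Among them was ZNF574, with 64 fragments in the RB1 siRNA library and 51 in the control siRNA library, 34 in the HA-RB(245-255) library and 37 in the EV(245-255) library, and 20 in the HA-RBN library. Counted from the listed start in place of the gene's outer end, an alternative chosen after seeing the data, 191 of 210 members had a summit in the HA-RBN library and 168 in the EV(RBN) library.

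The members' bodies held 9.81 summits per 100 kb in the HA-RBN library and 4.82 in the EV(RBN) library, against 15.4 and 13.2 in other chromosome 19 genes and 8.95 and 5.78 in all genes. The median strongest body summit of a member had 13.5 fragments in the RB1 siRNA library and 31.5 in the control siRNA library, 4 in HA-RB(245-255) and 5 in EV(245-255), and 4 in HA-RBN and 3 in EV(RBN). Over all genes this median was 8 in either siRNA library, 5 and 4 in HA-RB(245-255) and EV(245-255), and 6 and 4 in HA-RBN and EV(RBN). A body summit was listed for 11.7% and 8.33% of the 240 members in the RB1 and control siRNA libraries, against 26.6% and 19.3% of all genes. The shares were 30.4% and 27.5% in HA-RB(245-255) and EV(245-255), against 48.5% and 47.3%. In HA-RBN and EV(RBN) they were 79.2% and 60.4%, against 74.2% and 68.5%. Among the 30 members without a known strand, a summit lay at one or both ends in 6 and 9 in the RB1 and control siRNA libraries, 18 and 16 in the HA-RB(245-255) and EV(245-255) libraries, and 28 and 23 in the HA-RBN and EV(RBN) libraries.

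The members lie in 16 runs separated by gaps of over 1 Mb. The largest, ZNF628 to ZNF446, held 57 members, of which 52 had a known strand, and 46 of these (88.5%) had a 5′ summit in the HA-RBN library and 39 (75%) in the EV(RBN) library. In the run from ZNF175 to ZNF331, 28 of 32 (87.5%) had one in the HA-RBN library and 22 (68.8%) in the EV(RBN) library. In the run from ZNF101 to ZNF254, 24 of 29 (82.8%) had one in either library. The run from ZNF565 to ZNF573 had 21 of 23 (91.3%) in the HA-RBN library and 22 (95.7%) in the EV(RBN) library, with medians of 23 and 9.5 fragments. From ZNF653 to ZNF791, 21 of 24 (87.5%) had one in the HA-RBN library and 15 (62.5%) in the EV(RBN) library. From ZNF575 to ZNF296 these were 18 of 20 (90%) and 12 (60%), and from ZNF557 to ZNF846 11 of 14 (78.6%) and 9 (64.3%).

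The promoters of the members held CCGGAAG, read on both strands, in 93 of 210 (44.3%), against 14.2% of all 15842 promoters of the same length. ZNF genes of other chromosomes had it in 36.9%. The motif was present in 12 of the 14 members with a shared 5′ place in all 6 libraries, the exceptions being ZNF564 and ZNF546. By number of libraries with a 5′ summit, it was in 8 of 20 members with none, 10 of 24 with 1 and 12 of 35 with 2. It was in 19 of 41 members with 3, 16 of 46 with 4, 15 of 28 with 5 and 13 of 16 with 6. The members' share was thus no higher at 4 libraries (34.8%) than at 0 (40%). Over all genes the shares were 4.23%, 7.89%, 14.1%, 20.5%, 20.3%, 22.7% and 18.5% from 0 to 6 libraries. In the RB1 siRNA library 35 of 93 members with the motif (37.6%, 27.8 to 48.3) had a 5′ summit and 25 of 117 without it (21.4%, 14.3 to 29.9). The median stack there was 31 fragments with the motif and 48 without it. In the control siRNA library the shares with and without the motif were 30.1% and 17.1%. They were 57.0% and 42.7% in the HA-RB(245-255) library and 44.1% and 43.6% in the EV(245-255) library. The HA-RBN library had 87.1% and 85.5%, and the EV(RBN) library 75.3% and 70.9%. In each library the 2 intervals of the members overlapped. Over all genes the shares with and without the motif were 43.9% and 31.6% in the RB1 siRNA library and 35.5% and 26.8% in the control siRNA library. They were 59.0% and 40.6% in HA-RB(245-255), and 58.7% and 40.7% in EV(245-255). All genes had 88.3% and 63.7% in HA-RBN, and 73.5% and 49.9% in EV(RBN). The 2 intervals over all genes did not overlap in any library. CCAAT was in 52.9% of member promoters and 36.4% of all, and TATAAA in 1.90% and 9.63%. A match describes the letters in the window and is not a binding site shown by these data.

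**Figure D4:**
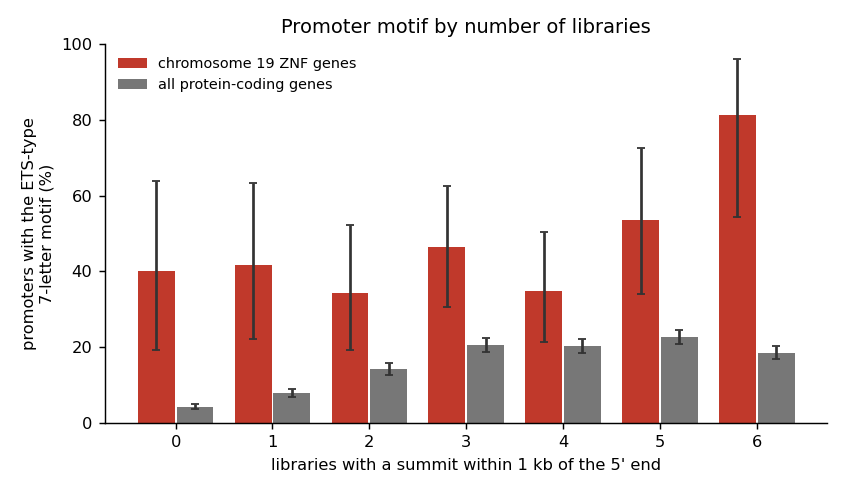
Share of promoters (percent, exact 95% binomial intervals) that hold the 7-letter ETS-type motif, by the number of libraries with a summit within 1 kb of the 5′ end, for chromosome 19 ZNF genes and all protein-coding genes. Among the members it was in 8 of 20 with 0 libraries, 16 of 46 with 4 and 13 of 16 with 6.

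Conditions were compared at 5′ summits shared by both libraries of a pair, within 500 bases of each other and with at least 10 fragments in either library. The value is the log2 ratio of enrichments less its median over all genes so shared, and is called relative log2 ratio. Members with a 5′ summit in 1 library of a pair alone have no such ratio. In the siRNA pair these were 29 in the RB1 siRNA library alone and 17 in the control siRNA library alone. Of all 15842 genes they were 2085 and 1244. With RB1 siRNA against control siRNA, 31 members were shared and their median was -0.08, with 10 above 0 and 21 below it, beside a median of -0.16 in other chromosome 19 genes. None was higher or lower by 1 log2 unit, against 1.79% of all genes higher and 0.945% lower. ZNF333, with 39 fragments in the RB1 siRNA library and 54 in the control siRNA library, had a relative log2 ratio of -0.74 (95% interval from counting -1.37 to -0.12). It was the 1 member whose interval excluded 0, against 6.68% of all genes. The highest value was that of ZNF492, 0.80 (-0.30 to 1.98), with 23 fragments in the RB1 siRNA library and 11 in the control siRNA library. ZNF256 had 45 and 25 fragments in these libraries, 0.58 (-0.16 to 1.35).

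A 5′ summit was listed in the HA-RB(245-255) library alone for 41 members and in the EV(245-255) library alone for 30, which have no ratio. Of all 15842 genes these were 2043 and 2052. With HA-RB(245-255) against its empty vector, 51 members were shared and their median was 0.05, with 29 above 0 and 22 below it. None was higher or lower by 1 log2 unit, against 3.31% of all genes higher and 2.71% lower. With a sharing distance of 1 kb 3 of 56 members were higher and 2 lower, and the shares over all genes were not computed at that distance. ZNF44 had 24 fragments in the HA-RB(245-255) library and 43 in the EV(245-255) library, a relative log2 ratio of -0.80 (-1.58 to -0.04). It was the 1 member whose interval excluded 0, against 4% of all genes. ZNF766 had 24 fragments in the HA-RB(245-255) library and 15 in the EV(245-255) library, 0.72 (-0.27 to 1.76).

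A 5′ summit was listed in the HA-RBN library alone for 35 members and in the EV(RBN) library alone for 7, which have no ratio. Of all 15842 genes these were 3154 and 956. With HA-RBN against its empty vector, 102 members were shared and their median was -0.13, with 48 above 0 and 54 below it, beside 0.03 in other chromosome 19 genes. Some neighbours among them, such as ZNF529 and ZNF382, share the same summits and are each counted. By at least 1 log2 unit 2 members were higher and 5 lower, against 3.67% of all genes higher and 2.71% lower. With a minimum of 20 fragments 2 of 51 members were higher and 1 lower, and with a minimum of 5 fragments 3 of 127 were higher and 12 lower. Shares over all genes were not computed at these minimums, so these counts cannot be read as more or fewer than among all genes. ZNF850 had 26 fragments in the HA-RBN library and 4 in the EV(RBN) library, 1.23 (-0.30 to 3.21), and ZNF324 had 24 and 4, 1.11 (-0.43 to 3.10). ZNF582 was lowest, with 11 fragments in the HA-RBN library and 10 in the EV(RBN) library, -1.33 (-2.71 to 0.06), and ZNF823, ZNF432, ZNF681 and ZNF761 lay between -1.15 and -1.06. The intervals of these 7 members all included 0. ZNF460, with 34 fragments in the HA-RBN library and 23 in the EV(RBN) library, -0.91 (-1.71 to -0.08), was the 1 member whose interval excluded 0, against 3.25% of all genes. ZNF274 was at 0.68 (-0.07 to 1.51), ZNF808 at 0.30 (-0.65 to 1.36) and ZNF584 at -0.42 (-1.39 to 0.61).

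**Figure D5:**
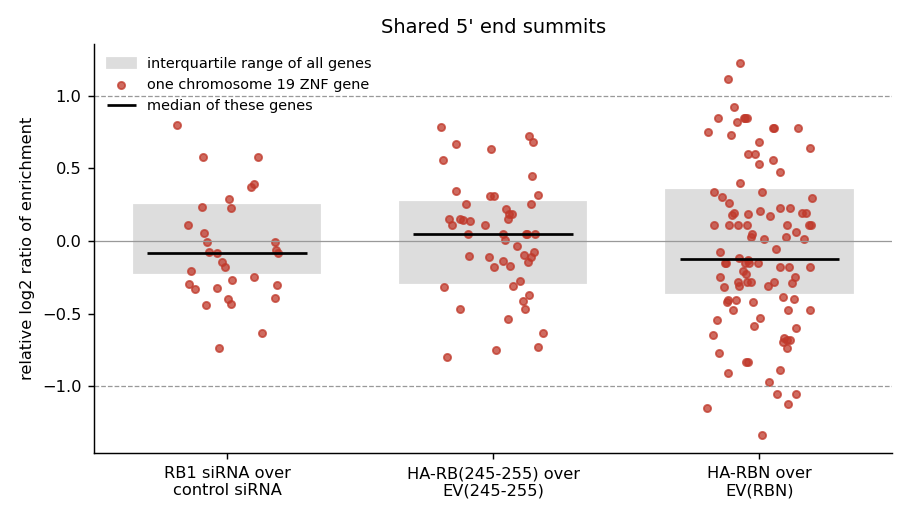
Relative log2 ratio of enrichment at shared 5′ summits in the 3 comparisons; each point is 1 chromosome 19 ZNF gene, the line its group's median, the grey box the interquartile range of all genes and the dashed lines 1 log2 unit. Medians lie at -0.08, 0.05 and -0.13, inside the boxes.

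At 3′ ends 0 members were shared in the siRNA comparison, where 1.82% of all shared genes were higher and 0.909% lower by 1 log2 unit. With HA-RB(245-255) against its empty vector they were ZNF580 at -0.33 (-1.06 to 0.39) and ZNF324 at 0.21 (-0.51 to 0.94), and neither passed 1 log2 unit, against 2.21% of all genes higher and 3.87% lower. With HA-RBN against its empty vector ZNF580 was at -0.36 (-1.07 to 0.38), ZNF324 at 0.30 (-0.67 to 1.37) and ZNF628 at 0.12 (-1.43 to 1.95), against 4.26% of all genes higher and 3.19% lower by 1 log2 unit. In gene bodies the strongest summits were shared by 9 members with RB1 siRNA against control siRNA, with a median of 0.05 and none past 1 log2 unit, against 3.4% of all genes higher and 2.33% lower. With HA-RB(245-255) against its empty vector the median over 16 members was -0.11, with 0 higher and 1 lower, ZNF550 at -1.09 (-2.51 to 0.20), against 3.07% of all genes higher and 3.01% lower. With HA-RBN against its empty vector the median over 26 members was 0.12, with 3 higher and 1 lower, against 4.15% of all genes higher and 4.72% lower. ZNF43 had 32 fragments in the HA-RBN library and 5 in the EV(RBN) library, 1.42 (0.04 to 3.13). ZNF420 and ZNF446 were at 1.38 (-0.15 to 3.36) and 1.15 (-0.65 to 3.57), and the lower member, ZNF254, was at -1.13 (-2.50 to 0.27). The interval of ZNF43 excluded 0, and those of the other 4 members named for gene bodies included it.

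The partners of KRAB silencing were followed as a list of 25 genes, of which 20 had a known strand. A 5′ summit was listed for 9 (45%) and 9 (45%) of them in the RB1 and control siRNA libraries, against 33.4% and 28.1% of all genes. The counts were 10 (50%) and 13 (65%) in the HA-RB(245-255) and EV(245-255) libraries, against 43.2% and 43.2% of all genes. They were 18 (90%) and 15 (75%) in the HA-RBN and EV(RBN) libraries, against 67.2% and 53.3% of all genes. CBX5, which encodes HP1 alpha, had 259 and 306 fragments in the RB1 and control siRNA libraries, 69 and 90 in the HA-RB(245-255) and EV(245-255) libraries, and 150 and 71 in the HA-RBN and EV(RBN) libraries. This start was stronger than that of any ZNF gene of chromosome 19 in each library except HA-RB(245-255), where ZNF77 had 80 fragments. SETDB1, the H3K9 methyltransferase of the complex, was listed at 34 fragments in the EV(245-255) library, and at 26 in the HA-RBN library and 10 in the EV(RBN) library. At shared 5′ summits the list's median relative log2 ratio was -0.24 with 0 of 6 genes above 0 for RB1 siRNA against control siRNA. It was -0.14 with 1 of 6 above 0 for HA-RB(245-255) against its empty vector, and 0.17 with 6 of 11 above 0 for HA-RBN against its empty vector. None of these genes passed 1 log2 unit in any of the 3 comparisons.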

How the data were processed

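The measurements were 6 peak lists, 1 per library, from ChIP-seq of 22RV1 cells. The submitters' processing notes name hg38 as the build, MACS2 2.1.0, Bowtie 1.1.2, Trimmomatic 0.33 and bcl2fastq 2.17. The deposited lists give for each peak a score, a fold enrichment (ratio), the −log10 p-value and −log10 q-value, and the offset of the summit, all as the authors' peak caller wrote them. Peaks were listed per library. The lowest −log10 p-value of a list was between 1.30 (HA-RBN) and 1.36 (control siRNA), so weak peaks are included. The median peak had 3 fragments in the HA-RBN list and 6 in the control siRNA list, the lowest and highest of these medians.

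From the deposited fold and p-value of each peak, the fragments stacked at its summit and the local background were solved with the Poisson model of MACS2. In the 4 lists with an IgG partner the stack was a multiple of 1 scaled fragment, taken as the smallest gap between common stacks, with a local background of at most 1. A single solution was found for at least 99.8% of peaks in each list, and the solver was tested on simulated data. Total depth is not given, and the background of 0.187 to 0.634 fragments per base stands for it.

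Genes, strands and promoters came from RefSeq (GRCh38.p14), and a summit counted within 1 kb of an end. Intervals are exact (Clopper-Pearson, 95%). Named genes were ZNF180, ZNF333 and ZNF554, the 5 strongest members per library and end (3′ summits over 2 kb from another gene's start), and the 4 highest and 4 lowest ratios per comparison with at least 20 fragments in either library, of which a selection is printed. Chosen after their values were seen were the promoters to print, the genes with body summits, all 3′ summits of at least 10 fragments, and ZNF582, ZNF823, ZNF432, ZNF681 and ZNF761, which are below 20 fragments and make up a count. Members and lists were chosen with earlier results of these data known. Finger counts and KRAB domains were not analysed here. Python 3.11.15, numpy 2.4.6, pandas 2.3.3, scipy 1.17.1 and matplotlib 3.10.9 were used. Alternative windows, fragment minimums, a q-value minimum and other sharing distances were tried.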

Additional observations from a re-analysis of the deposited data

How the results depend on the processing

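No paired analysis was possible because each group had 1 library. In this paragraph libraries are given as RB1 siRNA, control siRNA, HA-RB(245-255), EV(245-255), HA-RBN and EV(RBN). Of the 127 alternative values, 71 stayed within the interval of the value reported, or within 1.5 times a count, and 56 moved; the 5′ end was the stronger in more members than the 3′ end under each of the 3 alternatives run for that comparison, and the cause of each move other than a stricter minimum was not tested. With −log10 q of at least 5, the 5′ share was 0%, 0%, 0.476%, 0%, 51.0% and 17.1%, the 3′ share 0% in the RB1 siRNA, HA-RB(245-255) and EV(245-255) libraries, 1.43% in HA-RBN and 0.476% in EV(RBN), and the body share 0% in the 4 lists with an IgG partner, 12.5% in HA-RBN and 5% in EV(RBN). Over the whole genome, 78, 128, 214, 165, 10161 and 2950 peaks passed that minimum, of 34035, 20860, 92479, 74457, 243310 and 156785. Shares over all genes were not computed at that minimum. With at least 10 fragments, the 5′ share was 36.7% in HA-RB(245-255), 31.9% in EV(245-255), 56.2% in HA-RBN and 20.5% in EV(RBN). The 3′ share was 0% in RB1 siRNA, 0.952% in HA-RB(245-255), EV(245-255) and EV(RBN), and 2.38% in HA-RBN. The body share was 6.25% in RB1 siRNA, 9.17% in HA-RB(245-255), 10.8% in EV(245-255), 15% in HA-RBN and 7.92% in EV(RBN), and the 5′ end was the stronger in 116 members in HA-RBN and 43 in EV(RBN). With at least 20 fragments, the 5′ share was 17.1% in control siRNA, 19% in HA-RB(245-255), 18.6% in EV(245-255), 25.2% in HA-RBN and 3.33% in EV(RBN), and the 3′ share 0% in RB1 siRNA, 0.952% in HA-RB(245-255), EV(245-255) and HA-RBN, and 0.476% in EV(RBN). With a window of 2 kb, 91.0% of 5′ ends in HA-RBN and 79.5% in EV(RBN) had a summit, and the 3′ share 9.05% in HA-RB(245-255), 10% in EV(245-255), 41.4% in HA-RBN and 25.2% in EV(RBN). With 500 bp, the 3′ share was 0% in RB1 siRNA, 8.57% in HA-RBN and 5.71% in EV(RBN). From the listed promoter start, chosen after seeing the data, the 5′ share was 57.1% in HA-RB(245-255), 91.0% in HA-RBN and 80% in EV(RBN). Relative to other chromosome 19 genes, the median of RB1 siRNA against control siRNA was 0.082 in place of -0.083, and that of HA-RB(245-255) against its empty vector -0.021 in place of 0.046. With summits shared within 200 bp the median of HA-RBN against its empty vector was 0.026 in place of -0.125. The signs of these 3 medians thus rest on the setting. With −log10 q of at least 5, 0 members were left for RB1 siRNA against control siRNA, which gives no value. That minimum left 1 member for HA-RB(245-255) against its empty vector. For HA-RBN against its empty vector it left 93 members, with a median of -0.087. Beyond 10 fragments, few 3′ ends can be compared at this depth.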
